A study of Saccharomyces cerevisiae with 112 samples.

Results

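The 4 libraries taken at the start of a 4-thiouracil (4TU) chase in budding yeast hold, for each mRNA, the share of its reads that carry label before the chase has removed any. They were chosen by their sample titles, as the t0 points of the chase with glucose and of the chase without glucose, with 2 libraries in each condition. A gene entered when it had at least 100 reads in each of the 4 libraries, which held for 4302 of the 5560 yeast features. These genes held 98.5% to 98.6% of the yeast reads of a library, and the other 1258 features were not tested. All 4 libraries came from strain KWY165 of Saccharomyces cerevisiae, whose genotype the labels do not give. The titles give the chase points without a unit, taken here as minutes, and neither the length of the labelling before t0 nor the handling of the cells without glucose at t0 is stated there. No label says that replicates came from separate cultures, so the p-values measure the spread between these libraries, which may be technical.

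SLAM-seq follows new RNA through 4TU, a base that cells build into RNA in place of uracil. After alkylation with iodoacetamide the incorporated base is read as C, so a read with T-to-C conversions marks a transcript made while label was present. The share of labelled copies rises faster for an mRNA that is degraded and replaced quickly. In growing cells a stable mRNA gains label too, because a larger culture needs new copies, and the share of every mRNA approaches a plateau when labelling is long. Different ratios describe the label here. The labelled share is the number of labelled reads over all reads of a gene, and it can only count a read once. It counts only reads with a conversion, so it need not equal the fraction of copies that hold label. The conversion rate is the number of conversions over the covered T positions, and it does not depend on how many T positions a read has.

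The libraries held 4798487 to 10591665 yeast reads, and 61.0% to 62.6% of these were labelled. The mean share was 61.1% in the 2 libraries with glucose and 62.5% in the 2 without, which an exact two-sided permutation test put at p = 0.333, the smallest that 2 against 2 libraries allow. The conversion rate was 3.73% to 3.75% of covered T positions in all 4 libraries. Reads covered 28.4 to 29.1 T positions on average, and a labelled read carried 1.73 to 1.75 conversions. Reads of the spike-in features in the same libraries were called labelled at 0.434% to 0.496%. Total RNA from cells of the same strain without 4TU gave 0.0397% labelled reads in glucose and 0.0502% without glucose, with 1 library each. Reads in those libraries covered 24.9 and 24.8 T positions on average, fewer than at chase start, and no spike-in reads were counted in them. Whether they give the background of the chase libraries was not tested.

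Across the 4302 genes the labelled share spanned a wide range and the conversion rate a narrow one. The median gene had 59.5% labelled reads, the central 90% of genes lay between 47.2% and 70.4%, and the extremes were 33.5% and 88.1%. The median conversion rate was 3.73%, the central 90% lay between 3.30% and 4.21%, a ratio of 1.28, and the extremes were 2.34% and 7.75%. In 3591 genes, or 83.5%, the conversion rate was within 10% of the median. Both quantities are means over the 4 libraries.

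The spread between genes exceeded the spread between libraries for the labelled share and less so for the conversion rate. The standard deviation of the share was 7.08 percentage points between genes and 3.39 points between libraries within a gene. For the conversion rate these were 0.330 and 0.284 percentage points over all genes. Among the 1209 genes with a mean of at least 1000 reads they were 0.283 and 0.149 points. The spread between genes is that of means over the 4 libraries, and the spread within a gene that of single libraries. Noise between libraries therefore weighs less in the former. The order of genes by share was much the same in any pair of libraries, with a Spearman correlation of 0.756 to 0.838 over all genes and 0.934 to 0.961 over the deeper genes. By conversion rate it was 0.394 to 0.525 and 0.669 to 0.806. These correlations are across genes of libraries that share their windows and base composition, and genes are not independent replicates.

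**Figure D1:**
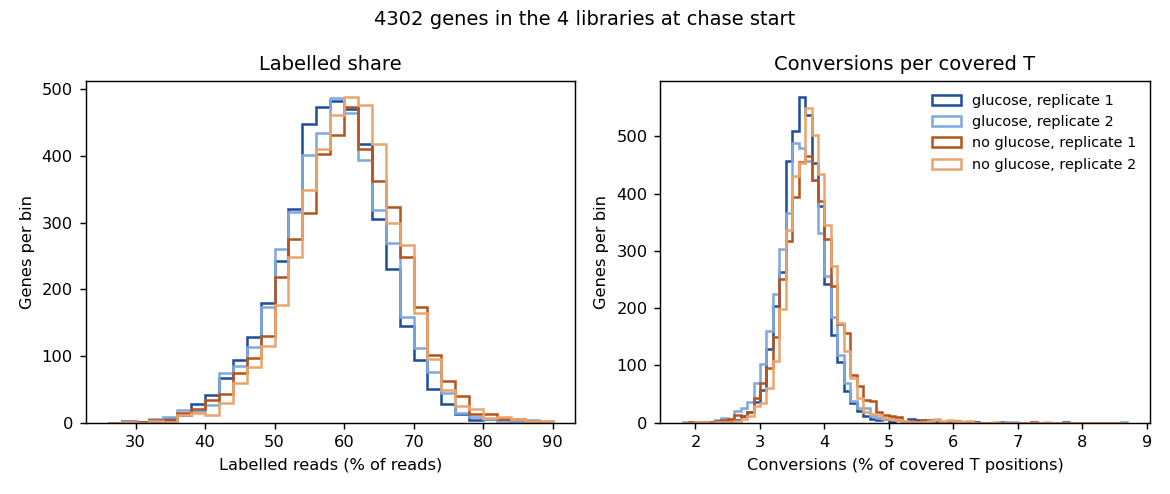
Number of genes (y axis) by labelled reads in percent of reads (left) and conversions in percent of covered T positions (right), one outline per library at chase start. The 4 outlines nearly coincide, with medians of 58.5% to 60.7% for the share and 3.67% to 3.79% for the conversion rate.

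Much of the order by labelled share followed the number of T positions that a gene's reads cover. The share and the covered T positions per read had a Spearman correlation of 0.879 across genes, while the conversion rate and the covered T positions had one of 0.117. In the decile of genes with the fewest T positions, a median of 18.4 per read, the median share was 47.7% and the median conversion rate 3.67%. In the decile with the most, a median of 34.8 per read, the median share was 69.4% and the conversion rate 3.82%. Read depth was nearly unrelated to either, with Spearman correlations of 0.0537 for the share and 0.0567 for the conversion rate with log2 mean reads.

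If the conversions of each gene had fallen evenly on its covered T positions, the median gene would have had 63.1% labelled reads. The measured share was below that value in 4134 genes and above it in 168, and the median gene reached 94.2% of it. Across genes the measured and the even share, which rest on the same conversions, had a Spearman correlation of 0.967. The even share treats all copies of a gene as equally labelled. The ratio of the measured to the even share had a Spearman correlation of 0.0397, across genes, with the slope of the labelled odds in glucose described further on. In 20 genes the window held under 1 counted conversion per labelled read.

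**Figure D2:**
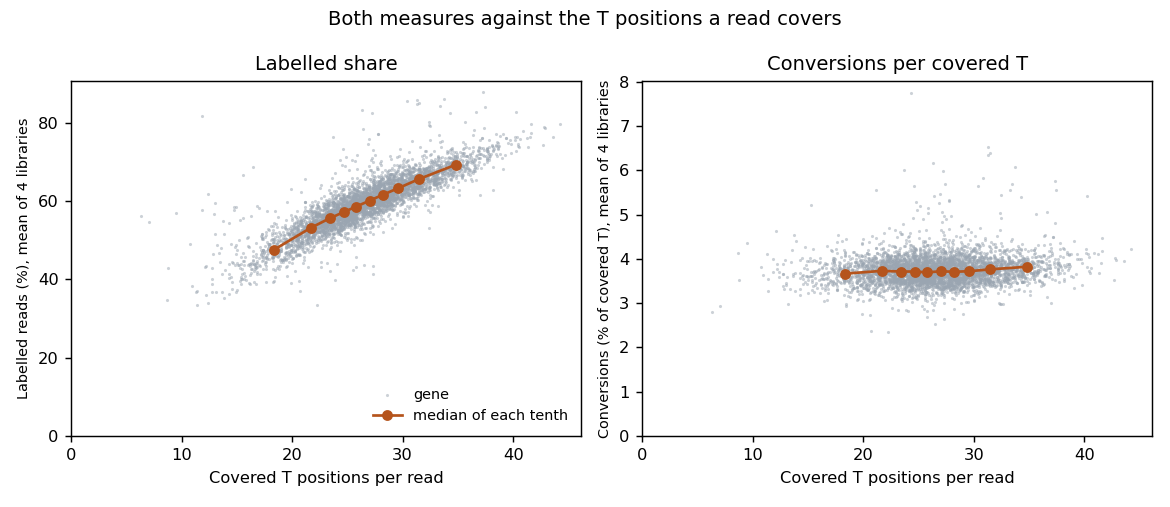
Labelled reads (left) and conversions in percent of covered T (right), means of 4 libraries, against covered T positions per read, with 1 grey point per gene and the median of each decile of genes joined in brown. The deciles climb from 47.7% to 69.4% in share and only from 3.67% to 3.82% in conversion rate.

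Each gene was then tested against the whole library. The quantity is the log2 odds of labelled to unlabelled reads relative to the library-wide odds, tested by quasi-likelihood in edgeR, with p-values adjusted by Benjamini-Hochberg over all 4302 genes and called under 0.05. By labelled reads, 902 genes (21% of those tested) were above the library and 1880 (43.7%) below it, 64.7% in either direction. The median gene lay at -0.14 on this log2 scale. Relative to the median gene, 1319 genes (30.7%) were higher and 1337 (31.1%) lower, 61.7% in all. By conversion rate, with the median gene at -0.01, 540 genes (12.6%) were higher and 574 (13.3%) lower, 25.9% in all. The calls by share and by conversion rate met in part. Of the 902 genes above the library by labelled reads, 323 were also higher by conversion rate, which is 35.8% of the former and 59.8% of the latter. Of the 1880 below it, 400 were also lower, which is 21.3% and 69.7%. In 156 genes the calls were opposite, 62 of them higher by reads and lower by conversions and 94 the reverse. Tested against a log2 odds ratio of 0.5 in place of 0, 142 genes were higher and 409 lower.

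Among genes below the library by reads and with a low conversion rate in each library, the 12 with the lowest odds had mean shares of 33.5% to 39.9%. Their conversion rates were 2.34% to 3.62%, and their windows held 11.4 to 23.9 covered T positions per read. They encode proteins of chromatin and transcription (RSC8 of the RSC remodelling complex, SRB6 of Mediator, SCC4 of the cohesin loader), of mitochondria (FIS1 of mitochondrial fission, MRP20 of the mitochondrial ribosome, MRX19, and YAT1, a carnitine acetyltransferase), of DNA repair (RAD59), of cell polarity (ZDS1) and of ribosomal RNA processing (PXR1), besides DSE3 and YLR358C. The rule required a rate below that of the library in each of the 4 libraries, and in MRX19 and PXR1 the test by conversions did not pass the threshold. Windows of MRX19 and DSE3 overlap the window of another gene on the same strand (RPL41A and RBL2), and that of YLR358C is 4604 bases long, so their reads are uncertain as to their gene. Of the 24 genes at both ends, 12 have windows that overlap one on the other strand, and whether the counting used strand is not stated. Only windows were compared, so an overlap with the rest of another gene was not sought.

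RAD59, a recombination repair gene read in a window on the minus strand of chromosome IV from 343778 to 344487, was the lowest of them. Its labelled share was 38.5% and 38.0% with glucose and 28.9% and 28.9% without glucose, and its conversion rate was 2.77%, 2.13%, 2.42% and 2.04% in the same order. All 4 values lay below those of the libraries in both measures, as the naming rule required. Its log2 odds relative to the library were -1.67 ± 0.14 (SE, adjusted p = 3.3e-11 by edgeR), from a mean of 206 reads per library. The difference between the conditions did not pass the threshold (adjusted p = 0.504). RSC8, on the minus strand of chromosome VI from 227142 to 227763, had a deeper window, with a mean of 2042 reads, and values that differed less between libraries. Its share was 36.2%, 37.6%, 38.5% and 38.1%, and its conversion rate 3.42% ± 0.096 (SD, n = 4), with log2 odds of -1.43 ± 0.05 by reads and -0.14 ± 0.03 by conversions.

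The 12 genes with the highest odds by the same rule had mean shares of 79.0% to 86.1%, conversion rates of 4.01% to 6.54%, and 11.8 to 44.3 covered T positions per read. Single libraries ran from 73.5% to 89.9% in these genes and from 28.9% to 45.3% in the 12 least labelled, a gap that the choice of the genes fixes. The rule also required a conversion rate above that of the library in each library. Amino acid synthesis gave 3 of them (HOM3, the aspartate kinase, MET13, a methylenetetrahydrofolate reductase, and GLT1, glutamate synthase). PGK1 encodes the glycolytic phosphoglycerate kinase, TIF2 the initiation factor eIF4A, PIR1 a cell wall protein, NSG1 a regulator of sterol synthesis, BZZ1 an actin patch protein and SNT1 a subunit of the Set3 complex. The others were HOT13, MTC7 and YGL007C-A. In GLT1, 14% of the reads were multimapped. The windows of MTC7 and HOT13 overlap those of HYP2 and MDH1 on the same strand, so reads there are uncertain as to their gene, and MTC7 held 0.578 conversions per labelled read.

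YGL007C-A, a small open reading frame on the minus strand of chromosome VII read from 482582 to 483191, led them with 3001 reads on average. Its labelled share was 84.0%, 86.6%, 85.9% and 87.8%, and its conversion rate 6.10%, 5.996%, 6.04% and 6.16%. The values in the 4 libraries differed little. All lay above those of the libraries in both measures, as the naming rule required. The log2 odds were 1.92 ± 0.05 by reads (adjusted p = 4.4e-22) and 0.73 ± 0.02 by conversions. PGK1, on the plus strand of chromosome III from 138747 to 139358, had shares of 80.2%, 79.0%, 80.4% and 79.6% and a conversion rate of 4.48% ± 0.081 (SD, n = 4). Reads of PGK1 covered 41.6 T positions, against 33.8 in YGL007C-A. TIF2 covered 44.3, with a share of 79.7% ± 0.83 and a conversion rate of 4.23% ± 0.087 (SD, n = 4).

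**Figure D3:**
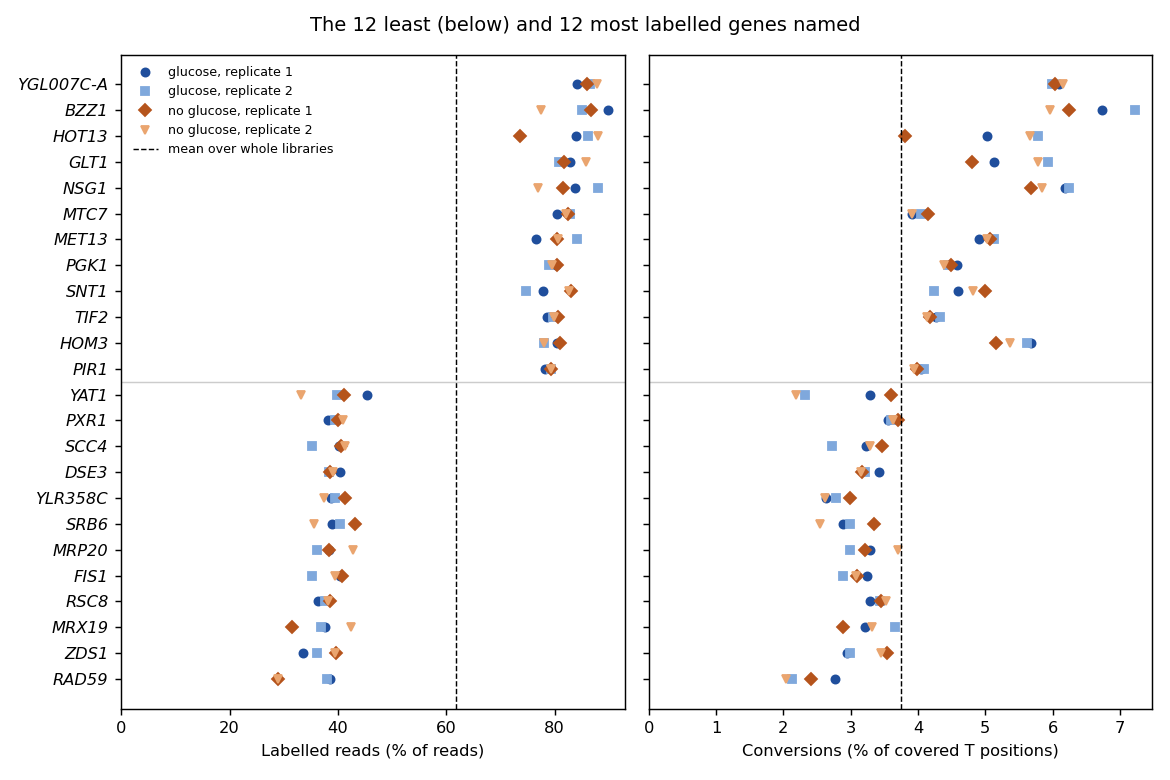
Labelled reads (left) and conversions in percent of covered T (right) of the 12 least and 12 most labelled genes named, with 1 marker per library and a dashed line at the mean of the whole libraries. By share, on which they were chosen, the sets span 28.9% to 45.3% and 73.5% to 89.9%, while PXR1 below and PIR1 above lie close to the line by conversion rate.

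Some genes far from the median in share were ordinary in conversion rate, and were singled out after their values were seen. IRC8 had the lowest share of all, 29.3% and 35.1% with glucose and 32.3% and 37.3% without, but a conversion rate of 3.55% ± 0.26 (SD, n = 4), with 11.4 covered T positions per read. PRE6, a subunit of the proteasome core, had a share of 34.1% ± 2.7 and a conversion rate of 3.70% ± 0.070, with 12.4 T positions. CRP1 had a share of 34.8% and a conversion rate of 4.13%, above the median gene, with 8.68 T positions. ERG25, a methyl oxidase of ergosterol synthesis, was below the library by share (44.6% ± 1.4) and above it by conversion rate (4.39% ± 0.032, n = 4). Its log2 odds were -1.01 by reads and 0.24 by conversions, each past the threshold.

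By conversion rate alone the order was led by other genes, also named after their values were seen. GCD2, a subunit of the exchange factor eIF2B, had the highest rate, 7.76%, 8.61%, 7.21% and 7.43%, from a mean of 174 reads. ILV3, a dihydroxyacid dehydratase of branched-chain amino acid synthesis, had the highest share of all genes, 87.5%, 89.4%, 87.8% and 87.5%, and a rate of 5.77% ± 0.20 (SD, n = 4). HIS5 of histidine synthesis (6.40%), MRPS12 of the mitochondrial ribosome (6.35%) and IFA38 of fatty acid elongation (6.18%) followed BZZ1 (6.54%). Labelled reads without 4TU were also counted for part of these genes. Of the 43 genes with the highest rates, 21 (48.8%) had a share without 4TU above 3 times the median of the genes with any labelled read there, as had 375 (8.72%) of all genes, and the 21 are 5.6% of the 375. Of the 43 genes with the lowest rates, 8 (18.6%) were above it too. In the 43 highest the share without 4TU was at most 7.14%. The part of these reads in the rates was not tested.

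At the other end by conversion rate stood RAD59, LAM6 (2.37%), NCA2 (2.54%), TMA10 (2.64%) and HPA2 (2.70%), with means of 173.5 to 286 reads. Among deeper genes RPL41A, a very small protein of the ribosome's large subunit, had the lowest rate apart from SWC5, at 3.001%, 2.99%, 2.98% and 2.93% from a mean of 64535 reads. Its log2 odds by conversions were -0.34, and its labelled share was 57.1% ± 0.66 (SD, n = 4). SWC5 had 2.79% ± 0.11, but its reads covered 6.32 T positions and held 0.316 conversions per labelled read.

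Gene groups were described by their counts, beside the share of all genes called, 21% higher and 43.7% lower by reads and 12.6% higher and 13.3% lower by conversions. The cytosolic ribosomal proteins, which are among the most abundant mRNAs of growing yeast, had a median share of 63.0% over 138 genes. Relative to the library 70 were higher and 42 lower by reads, and relative to the median gene 90 were higher and 24 lower. By conversion rate the counts turned, with 18 higher and 80 lower, and a median of 3.61% against 3.73% over all genes. Their reads covered a median of 30.3 T positions, against 26.4 over all genes. Members ran from 2.98% in RPL41A to 5.82% in RPL39, both of the large subunit. RPS31, a fusion of ubiquitin with a ribosomal protein, had a share of 60.0% ± 0.34 and a rate of 3.44% ± 0.044 (SD, n = 4).

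Ribosome biogenesis factors, which process ribosomal RNA and assemble its subunits, were low by reads and near all genes by conversion rate. Over 129 genes the median share was 55.9% with 23 covered T positions per read. By reads 17 were higher and 90 lower than the library, and 28 were higher and 75 lower than the median gene. By conversion rate 28 were higher and 18 lower, with a median of 3.78% against 3.73% over all genes. NOP58, a core protein of box C/D small nucleolar RNPs, had a share of 50.3% ± 1.5 and a rate of 4.13% ± 0.058 (SD, n = 4). GAR1, of the H/ACA particles, had 53.4% ± 1.9 and 3.62% ± 0.014.

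The proteasome was low by both measures. Over its 35 genes the median share was 56.1% and the median rate 3.56%. By reads 1 was higher and 27 lower than the library, and by conversions 2 were higher and 15 lower. Relative to the median gene 4 were higher and 22 lower. The 15 called lower by conversions were also called lower by reads. PUP2, a subunit of the core, had a share of 40.2% ± 1.2 and a rate of 3.39% ± 0.097 (SD, n = 4).

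Among the other groups of protein synthesis, mitochondrial ribosomal proteins (76 genes) had a median share of 58.5% and a median rate of 3.86%, with 9 higher and 6 lower by conversions. In initiation factors (28 genes) these were 63.4% and 3.74%, with 7 higher and 7 lower. In elongation and termination factors (13 of 15 genes) they were 63.3% and 3.82%, with 6 higher and 1 lower. Aminoacyl-tRNA synthetases (20 genes) had 62.6% and 3.8%, with 4 higher and 4 lower, and subunits of RNA polymerases I and III (22 of 23) had 59.1% and 3.83%, with 3 higher and 3 lower. TEF2, which encodes elongation factor 1A, had shares of 71.8%, 71.4%, 71.6% and 71.5%, the narrowest spread among the genes named.

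Glycolysis and fermentation (19 of 24 genes) had a median share of 67.0%, with 15 higher and 1 lower by reads and 17 higher and 1 lower relative to the median gene. By conversion rate 11 were higher and 3 lower, with a median of 3.87%. TDH3, a glyceraldehyde-3-phosphate dehydrogenase, had shares of 71.3%, 69.9%, 70.4% and 71.3% and a rate of 3.95% ± 0.086 (SD, n = 4). PDC1, a pyruvate decarboxylase, had 63.8% ± 0.48 and 3.85% ± 0.078. The lowest rate in the group was 2.99%, in the hexokinase gene HXK1.

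Genes of the mitochondrial respiratory chain and ATP synthase (38 of 39) had a median rate of 3.93%, with 15 higher and 3 lower by conversions, and a median share of 63.2%. The TCA cycle (16 of 17) had 3.88% and 65.3%, with 4 higher and 4 lower. CYC1, cytochrome c, had a share of 65.5% ± 0.72 and a rate of 3.8% ± 0.037 (SD, n = 4). Genes that glucose represses, such as those of gluconeogenesis and the glyoxylate cycle, reached the read minimum in 12 of 30 cases. Their median rate was 3.40%, with 2 higher and 3 lower by conversions, and their median share 57.0%, with 1 higher and 5 lower by reads.

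Cell wall genes had the highest median share of the 28 groups, 69.1% over 26 of 27 genes. By reads 19 were higher and 4 lower, and 20 and 2 relative to the median gene. By conversion rate 15 were higher and 2 lower, with a median of 3.94%, and their reads covered 32.6 T positions. CCW12, a mannoprotein of the wall, had shares of 73.1%, 73.3%, 73.5% and 73.8% and a rate of 3.8% ± 0.044 (SD, n = 4), which was not past the threshold by conversions. CWP2, another wall protein, had 74.6% ± 0.44 and 3.91% ± 0.066.

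Ergosterol synthesis (24 genes) had no gene lower by conversion rate and 14 higher, with a median of 3.95%, whereas by reads 9 were higher and 11 lower, and 11 and 7 relative to the median gene. Heat shock chaperones (27 of 29) had 13 higher and 4 lower by conversions, with a median of 3.97%, the highest of the groups. SSA2, an HSP70 chaperone of the cytosol, had a share of 73.6% ± 0.25 and a rate of 4.06% ± 0.065 (SD, n = 4). General stress genes (21 of 39) held 3 higher and 4 lower by conversions. In them TMA10 and HSP12, a membrane stress protein, had rates of 2.64% and 2.99% beside a group median of 3.88%.

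Amino acid biosynthesis (64 of 68) had 23 higher and 8 lower by conversions, with a median of 3.87%, and 25 higher and 24 lower by reads. Its reads-based counts relative to the median gene were 32 and 12. ILV5, an acetohydroxyacid reductoisomerase, had a share of 67.9% ± 1.3 and a rate of 4.18% ± 0.070 (SD, n = 4). BAT1, a branched-chain aminotransferase, had the lowest rate of the group at 3.20%. Pyrimidine and purine synthesis (24 of 26) had 7 higher and none lower by conversions.

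Among regulatory groups, transcription regulators (50 of 65) had a median rate of 3.75%, with 7 higher and 5 lower, cell cycle regulators (30 of 32) 3.74%, with 3 and 3, and mRNA decay and P-body genes (37 of 39) 3.69%, with 1 and 5. GCN4, the activator of amino acid synthesis genes, had a share of 71.6% ± 1.8 and a rate of 4.06% ± 0.086 (SD, n = 4). PHO4, the activator of phosphate genes, had 36.7% ± 1.7 and 3.61% ± 0.15. Histones (11 genes) had a median share of 65.9%, with 3 higher and 1 lower by conversions.

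In the remaining groups calls by conversion rate went both ways in similar numbers. Plasma membrane transport (30 of 31) had 7 higher and 6 lower, actin and the secretory pathway (30) 8 and 6, the vacuolar proton pump (15) 4 and 3, the chaperonin CCT (8) 1 and 1, hexose transport (8 of 13) 2 and 1, and the mating response (13 of 15) 1 and 0. ACT1, actin, had a rate of 3.44% ± 0.065 (SD, n = 4), lower than the library, and PMA1, the proton pump of the plasma membrane, 3.93% ± 0.041, higher than it.

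**Figure D4:**
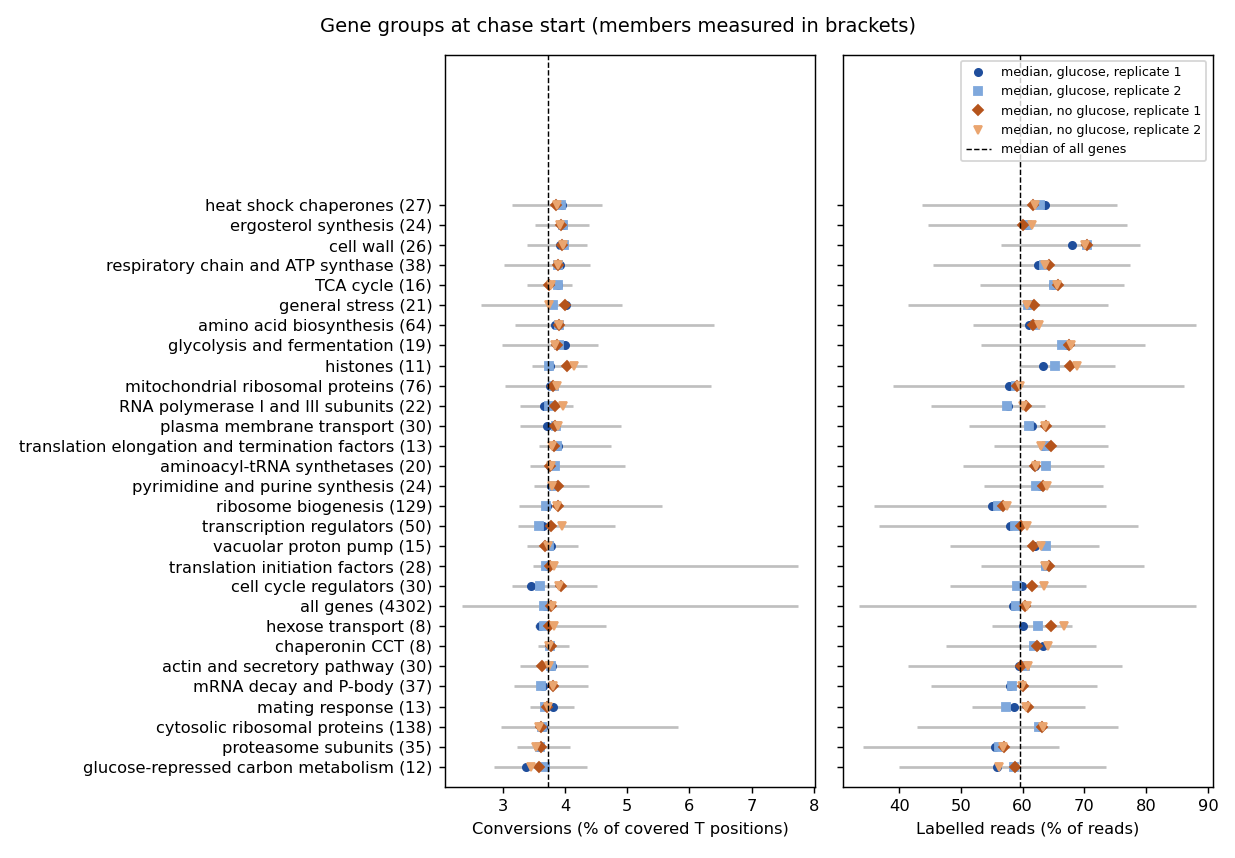
Medians of 28 gene groups and of all genes in each of the 4 libraries (markers) for conversions in percent of covered T (left) and labelled reads in percent (right), ordered by the former, with grey lines from the lowest to the highest member mean. Cytosolic ribosomal proteins lie below the median of all genes on the left and above it on the right, at 3.61% and 63.0%.

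Labelled shares at chase start were set beside the loss of label afterwards, in 12 libraries of the chase with glucose from 5 to 45 min that the shares do not use. The quantity is the slope of the log2 labelled odds per 10 min relative to the library-wide odds. By 45 min the median gene had 10.8% labelled reads with glucose and 34.0% without. Of all genes 110 (2.56%) had a slope above that of the library and 2257 (52.5%) one below it, 55% in all, with a median of -0.12. Relative to the median gene 297 (6.9%) were higher and 259 (6.02%) lower, 12.9% in all. By conversion rate 154 (3.58%) were higher and 2944 (68.4%) lower than the library. Without the course of replicate 1 the count of lower genes was 1155, and without that of replicate 2 the count of higher genes was 69. Share and slope had a Spearman correlation of -0.319 and conversion rate and slope one of -0.172, across 4302 genes whose windows and covered T positions are the same in both sets of libraries. The slope also moved with the covered T positions, from a median of -0.08 per 10 min in the decile with the fewest per read to -0.17 in the decile with the most, and their part in the relation of share and slope was not tested. In the decile of genes with the lowest conversion rates, a median of 3.30%, the median slope was -0.10, and in the decile with the highest, a median of 4.21%, it was -0.14.

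Of the 12 most labelled genes, 6 had a slope below that of the library past the threshold, near the 52.5% of all genes. Of the 12 least labelled 1 did, and the difference between the sets was not tested. MTC7, PGK1, TIF2, PIR1, MET13 and HOM3 were the 6, with slopes from -0.17 to -0.28 per 10 min, and YAT1 was the 1, with -0.20 ± 0.08 (SE). The slope of RAD59 was -0.12 ± 0.10 and that of YGL007C-A 0.02 ± 0.05, neither past the threshold. YGL007C-A still had 46.1% labelled reads after 45 min with glucose, and PGK1 26.7%.

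Cytosolic ribosomal proteins had the highest median share left of the 28 groups. It was 22% at 45 min with glucose, against 10.8% over all genes. Of the 138 genes, 48 had a slope above that of the library and 43 below it, against 2.56% and 52.5% of all genes. Relative to the median gene 90 were higher and 6 lower, against 6.9% and 6.02% of all genes. Glycolysis and fermentation were at 18.8% after 45 min and the vacuolar proton pump at 19.9%. Ribosome biogenesis factors were at 9.78% with glucose and at 55.0% without, against 34.0% over all genes without glucose.

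A labelling of stated length was compared next. The 2 libraries named for 30 min with 4TU hold total RNA from glucose-grown cells of strain KWY11376, so strain and experiment differ from the chase and cannot be told apart from the labelling. There 49.4% and 50.8% of reads were labelled, the conversion rate was 1.08% and 1.24%, and a labelled read carried 0.541 and 0.614 counted conversions, against 1.73 to 1.75 at chase start. The labelled share and the conversion rate are therefore not on the same footing in those libraries. Relative to each library, 2959 genes (68.8%) had higher labelled odds in the pulse than at chase start and 200 (4.65%) lower, 73.4% in all, with a median of 0.53. Relative to the median gene these were 395 (9.18%) and 417 (9.69%), and by conversion rate 1311 (30.5%) and 895 (20.8%). Shares in the pulse and at chase start had a Spearman correlation of 0.629 across genes, and covered T positions per read had one of 0.565 with the pulse share.

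Cytosolic ribosomal proteins stood lowest in the pulse. Their median share was 35.0%, against 56.7% over all genes, while at chase start it was 63.0% against 59.5%. Relative to the median gene 129 of 138 were lower in the pulse than at chase start and 1 was higher, and by conversion rate 110 were lower and 9 higher. RPL41B had 16.7% and 14.1% labelled reads in the pulse and 71.0%, 69.7%, 71.8% and 71.1% at chase start. RPS13 had 25% and 21.3%, against 72.0% ± 0.57 (SD, n = 4). FPR1, a peptidyl-prolyl isomerase, had 18.95% and 16.8%, against 63.0% ± 0.80. These 3 were named as the largest falls of this test among genes that met the naming rule, which fixes the gap between their values. Of 19 glycolysis genes 13 were lower relative to the median gene and 1 higher, whereas by conversion rate 5 were lower and 8 higher. Of 21 general stress genes 8 were higher and none lower relative to the median gene, and 14 were higher and 1 lower by conversion rate.

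**Figure D5:**
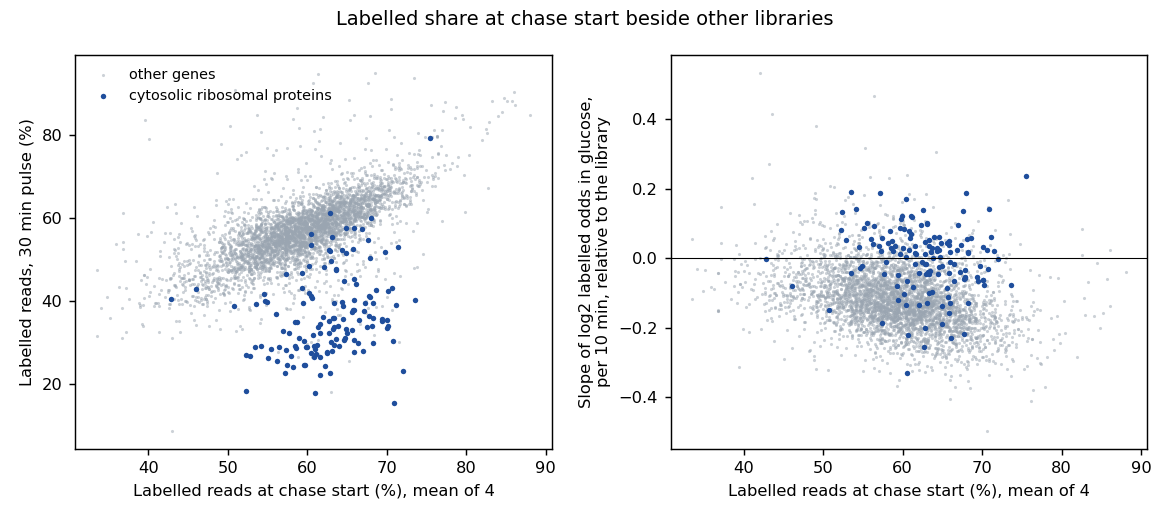
Labelled reads in the 30 min pulse in percent (left) and slope of the log2 labelled odds in glucose per 10 min relative to the library (right), against labelled reads at chase start in percent, 1 point per gene. Ribosomal protein genes (blue) fall below the other genes on the left, with medians of 35.0% and 56.7% for these and all genes, and lie around 0 on the right.

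The genes with the highest shares without 4TU had higher shares in the pulse than at chase start. RPN3, of the proteasome's regulatory particle, had 38.5% and 40.2% labelled reads in the libraries without 4TU, 94.2% and 95.4% in the pulse, and 68.8%, 60.5%, 57.4% and 58.7% at chase start. ARG8, of arginine synthesis, had 38.8% and 39.1% without 4TU, 93.5% and 91.9% in the pulse, and 67.7% ± 5.4 (SD, n = 4) at chase start. PCL7, PXL1 and TTI1 were the next highest without 4TU. TTI1 had a share of 39.6% ± 3.2 and a conversion rate of 2.74% ± 0.16 (n = 4) at chase start. The reason for the difference between the libraries was not tested.

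At chase start the conditions differed in few genes. Each condition is a chase course of its own, so course and glucose cannot be told apart here. By labelled reads 7 genes (0.163%) had higher odds without glucose and 2 (0.0465%) lower, 0.209% in all, relative to each library. The histone genes HHF1, HTB2 and HTA1 were among the 7. HHF1, which encodes histone H4, had shares of 63.3% and 63.7% with glucose and 68.9% and 69.3% without, a log2 odds difference of 0.28 ± 0.05 (SE, adjusted p = 0.0018). HTA1 was named after its values were seen. Their abundance differed by -0.03 to 0.10 on the log2 scale, with adjusted p of 0.897 and above. The others were GIC2, an effector of the polarity GTPase Cdc42, GNP1, an amino acid permease, CIT2, the peroxisomal citrate synthase, and SPO24. GIC2 had shares of 53.2% and 53.9% with glucose and 60.7% and 64.5% without.

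SSA1, an HSP70 chaperone, was lower, with 67.2% and 67.1% with glucose and 64.0% and 64.1% without (log2 odds difference -0.29 ± 0.06, adjusted p = 0.034). The other lower gene was RSC30, where 95.3% of the reads were multimapped. Leaving out 1 library changed these counts. Without replicate 1 with glucose 2 genes were higher, without replicate 1 without glucose 4 higher and none lower, and without replicate 2 without glucose 2 higher and 9 lower. Without replicate 2 with glucose 6 were lower. DESeq2 called none, with 53 genes at an unadjusted p under 0.05, against 310 by edgeR. By conversion rate 30 genes (0.697%) were higher and 10 (0.232%) lower, 0.93% in all.

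In abundance, on edgeR's log2 scale, 5 genes (0.116%) were higher and 23 (0.535%) lower without glucose at chase start, 0.651% in all. With a replicate block the counts were 84 and 83, but no label says what a shared replicate number means. Abundance values are relative to other mRNAs, and in whole cultures fewer cells with an mRNA and less of it per cell cannot be told apart. The zinc transporter genes ZRT1 and ZRT2 and their activator ZAP1 were higher by 3.26, 1.53 and 1.35, and YGL088W and EXG1, a glucanase of the wall, were the other higher genes. ZRT1 had labelled shares of 66.5% and 66.9% with glucose and 70.6% and 71.1% without, a difference in odds that did not pass the threshold (adjusted p = 0.69 by edgeR). NCE103, carbonic anhydrase, had the largest fall of all genes called, 2.50 (adjusted p = 1.4e-07 by edgeR), and its labelled shares were 51.0% and 51.4% with glucose and 56.7% and 57.6% without. PHD1, a regulator of filamentous growth, fell by 1.73, the kinase gene SKS1 by 1.55, CIT2 by 1.54, DPI8 by 1.28 and HXT2, a glucose transporter, by 1.25. In total RNA without 4TU, 1 library each, NCE103 had 2960 reads in glucose and 26027 after 30 min without it. HXT2 had 1830 and 30116, and PHD1, SKS1, CIT2 and DPI8 also had more reads without glucose. Those libraries held 22908723 and 16902813 yeast reads. At chase start, glucose and the separate chase courses cannot be told apart as the source of these falls. Leaving out replicate 2 without glucose raised the counts to 89 higher and 71 lower, replicate 1 without glucose to 17 and 51, and replicate 1 with glucose the count of higher genes to 12.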

How the data were processed

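RNA of the chase was alkylated and made into 3' end libraries, as the labels' protocols say. The deposited tables are slamdunk 0.4.3 output, per the file headers, with whole-number counts for each 3' window of reads, reads with T-to-C conversions, covered T positions, conversions on them and multimapped reads. The submitters' processing notes also list cutadapt, Bowtie, TopHat2 and featureCounts, with no versions. Genome build, aligner settings and the conversions required of a labelled read are not stated. Window positions are those of the files, counted from 1. Files of 40 samples were given and 32 were used; the other 72 samples were not analysed here. Feature names matched a gene table of the organism in 5558 cases, which gave the symbols.

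From these counts, labelled and unlabelled reads of each library were fitted as separate columns in edgeR 4.0.16 (R 4.3.3) with an intercept per library, the sums over all yeast features as library sizes and the robust quasi-likelihood test. Conversions and unconverted covered T positions replaced the columns for the conversion rate. Abundance used the read counts with TMM factors. Adjusted p-values are Benjamini-Hochberg over all 4302 genes. Correlations are across genes and carry no p. Counts for the 4302 genes were also simulated from the fitted means and dispersions of each model, with the tested effect removed except in 200 genes. In the data 64.7% of genes were called against the library, so the rates describe the model and not these data. There the test against the library recovered 92% of 100 changes of 0.5 on the log2 scale and 100% of those of 1. The test between conditions recovered 51% and 91%. For the pulse these were 44% and 91%, and for abundance 45% and 100%. The slope test recovered 35% of changes of 0.1 and 92% of those of 0.25. False calls in this single draw were 1.54% of calls against the library and 4.05% between conditions. They were 3.57% for the pulse, 6.62% for the slope and 9.94% for abundance. Labelled shares of whole libraries had narrow 95% Wilson intervals, such as 60.98% to 61.04% in replicate 1 with glucose. Reads carry no molecular identifiers, so an interval from counts alone covers counting error only. The variance between replicates was 1.86 to 1.98 times the counting variance for the share and 10.1 to 13.2 times for abundance.

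The groups come from sample titles. The genes at both ends were the 12 highest and 12 lowest past the threshold with the same sign in all 4 libraries by reads and conversions, under 20% multimapped reads and a share without 4TU of at most 3 times the median. That median was 0 over all genes, as 69.7% had no labelled read there in glucose, so the median of genes with any labelled read (0.0532% and 0.0691%) was used, a change made after the values were seen. Of the 24 genes, 16 had no labelled read in both libraries without 4TU, as had 2478 of all 4302 genes. The rule itself limited this share. Also named were the 2 deepest members of each of 28 gene lists, for every other test the 5 genes that rose most and the 5 that fell most, if called, of one sign in both replicates and under the same limits on multimapped reads and on the share without 4TU, and 5 genes with the highest share without 4TU. The lowest and highest members of lists were named after their values were seen. The members and lists were chosen with earlier results of these data known. At the read minimum, the 125 genes with 100 to 109 reads in their lowest library had a median share of 59.4% and the 127 with 90 to 99 reads one of 58.8%. Alternatives were other read minimums, scalings, DESeq2 1.42.0, a replicate block, subtraction of the share without 4TU and leaving out libraries.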

Additional observations from a re-analysis of the deposited data

Results flagged for a closer look

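PIR1, a cell wall gene among the 12 most labelled, had 78.12% labelled reads in replicate 1 with glucose, apart from 79.24% to 79.34% in the other 3 libraries. The gap to the nearest library was 0.921 of the whole range, above Dixon's 95% limit for 4 values. Over the 50 sets of 4 values checked, for the libraries and the 24 genes at both ends by both measures, chance flags about 1 in 20. The library-wide shares and conversion rates were not set apart in this way.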

How the results depend on the processing

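Of the values for single named genes under the alternatives, 1476 kept direction and call, 90 lost the call, 8 gained it and 12 changed sign. The genes at both ends and the largest changes were chosen as called, with the same sign across libraries or replicates. Part of this tally is therefore fixed by the choice. Under the setting by conversions per covered T, 74 values kept both, 19 lost the call, 4 gained it and 9 changed sign. By conversions per covered T the log2 value against the library became 0.15 for NOP58, 0.075 for CYT1, 0.021 for NCE103, -0.053 for HXT2, 0.10 for ERG11, 0.24 for ERG25, 0.0028 for CLN3, -0.044 for MFA2 and -0.019 for PMP3, and relative to the median gene 0.028 for RPS31, 0.00698 for DED81 and 0.0084 for STE2. Against the library the counts of higher and lower genes were 540 and 574 by conversions, 505 and 713 with at least 500 reads, where fewer genes were tested, and 142 and 409 when tested against a log2 odds ratio of 0.5. Between conditions at chase start the labelled odds gave 30 and 10 by conversions and 0 and 0 by DESeq2; the lower genes were 1 without genes over 5% multimapped, 1 with at least 20 reads and 7 with at least 500. Leaving out 1 library gave 2 to 6 higher and 0 to 9 lower. For abundance, higher genes were 10 with at least 20 reads or no filter, and DESeq2 gave 16 and 37; leaving out 1 library gave 4 to 89 higher and 19 to 71 lower. For the slope, relative to the median gene the counts were 297 and 259, with at least 500 reads 1138 were lower, and leaving out a replicate gave 69 to 75 higher and 1155 to 1605 lower. For the pulse, the counts were 1311 and 895 by conversions and 395 and 417 relative to the median gene, with 1142 higher at 500 reads. For the slope and the pulse the scaling to the median gene was added after the data were seen. So was the setting that left out genes with few covered T positions per read. Where no construction shows it, the cause was not tested.

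Replicate numbers are shared by the conditions, but no label says what they share, and there are only 2 pairs. The deviations of same-numbered libraries had a correlation of 0.355 for abundance and -0.0019 for the labelled odds. With the replicate block 84 genes were higher and 83 lower in abundance, 10 higher and 7 lower in labelled odds between conditions, and 894 higher and 1853 lower against the library. Differences between conditions of 0.5 on the log2 scale, simulated from the fitted model, were recovered in 51% of the genes given them.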
